A study of Homo sapiens with 20 samples.

Results

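Nonsense-mediated decay (NMD) factors were followed as 9 genes in HepG2, a line derived from a human liver tumour: UPF1, UPF2, UPF3A, UPF3B, SMG1, SMG5, SMG6, SMG8 and SMG9. Members were found by gene symbol, and they accounted for 105 of the 59847 skipped exon events in 3 junction tables and for 9 of the 28278 genes in a table of FUBP1 RNA immunoprecipitation (RIP). The tables compared siFUBP1 with siCtrl2 after 48 h (3 RNA-seq libraries each), an antisense oligonucleotide (ASO) against U3 with one against GFP after 72 h (3 libraries each), and siFBL with siCtrl after 48 h (2 input and 2 FUBP1 RIP libraries each). All groups were this one cell line and are labelled by the siRNA or ASO they received. FUBP1 is a splicing factor, and FBL is the methyltransferase that places 2′-O-methyl groups on RNA with the help of small nucleolar RNAs. U3 is a small nucleolar RNA. From its contacts with methylated sites, the paper proposes that U3 directs this methylation on chromatin-associated RNA.

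NMD degrades messenger RNAs on which translation ends at a premature stop codon. The helicase UPF1 is recruited to the stalled ribosome, the adaptor UPF2 and the paralogs UPF3A and UPF3B connect it to exon junction complexes left by splicing, and the kinase SMG1, held in check by SMG8 and SMG9, phosphorylates it. Phosphorylated UPF1 then recruits SMG5 and the endonuclease SMG6, and several of these factors are themselves known to be NMD targets.

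The U3 libraries were the deepest, with 11249641 to 13321799 junction reads, the siFUBP1 and siCtrl2 libraries held 2693397 to 4474350, and the siFBL and siCtrl input libraries held the fewest, 910779 to 1142189. FUBP1 itself had 45.2 to 56.1 junction reads per 1000000 junction reads of the library (RPM) in siCtrl2 and 4.08 to 10.1 in siFUBP1. It was also lower under U3 ASO, at 38.7 to 43.4 RPM against 56.9 to 64.0 in GFP ASO, and its part in the U3 results was not tested. The deposited mean count of FBL, 1034 for siCtrl, was 164 for siFBL, each normalized within its own condition. The liver genes ALB, AFP and APOA1 had mean counts of 98648 to 360293, and the blood cell gene PTPRC of 8.01 and 3.38. Another liver gene, TTR, was lower, at 3544 for siCtrl and 3316 for siFBL. The methods describe the libraries of a group as biological replicates without saying how the cultures were kept apart, so p-values measure the spread between these libraries. A library is named by its position in the deposited lists, which carry no replicate numbers.

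Member events were spread unevenly over the genes. UPF3A held 13 of the 27 member events for siFUBP1, 36 of 68 for U3 and 8 of 10 for siFBL. SMG8 had none in any table, UPF2 appeared only in the U3 table, and SMG5 was the one other member in the siFBL table. Many UPF3A events share an exon or a junction, so they are not independent of one another. The 3 exons shown are those the results turn on. Exon 4 of UPF3A was at intermediate inclusion and had both events without overlap after siFUBP1, and exon 4 of UPF3B is its counterpart in the paralog, with 67 of 99 positions identical (67.7%). The other is a 132-base exon of SMG5 that is not in GENCODE release 44. A 265-base exon of UPF3A between exons 3 and 4, also not in that release, is described by its inclusion level. Bases of the exon are in capitals and intron bases in lower case (hg38, transcript strand).
UPF3A exon 4 (chr13:114286252-114286450, plus strand): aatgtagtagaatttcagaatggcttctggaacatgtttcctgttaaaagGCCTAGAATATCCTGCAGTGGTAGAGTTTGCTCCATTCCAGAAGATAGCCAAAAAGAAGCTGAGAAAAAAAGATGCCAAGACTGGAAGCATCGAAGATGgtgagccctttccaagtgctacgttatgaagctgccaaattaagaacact
UPF3B exon 4 (chrX:119845148-119845346, minus strand): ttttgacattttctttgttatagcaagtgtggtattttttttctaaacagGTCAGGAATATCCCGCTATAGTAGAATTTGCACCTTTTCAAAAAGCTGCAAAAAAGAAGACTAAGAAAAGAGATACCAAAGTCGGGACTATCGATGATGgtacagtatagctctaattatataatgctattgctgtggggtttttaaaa
SMG5 132-base exon (chr1:156281743-156281974, minus strand): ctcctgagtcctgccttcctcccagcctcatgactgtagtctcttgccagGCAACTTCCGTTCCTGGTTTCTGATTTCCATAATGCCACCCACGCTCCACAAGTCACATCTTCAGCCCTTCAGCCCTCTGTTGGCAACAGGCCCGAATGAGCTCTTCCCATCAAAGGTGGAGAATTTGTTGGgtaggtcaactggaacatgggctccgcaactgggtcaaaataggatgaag
The exon 4 of either paralog is 99 bases long and coding, so the loss of this exon alone leaves the reading frame intact. In the UPF3A event measured from exon 2, the skipping junction leaves out exon 3 as well. Exon 3 of UPF3A is coding and 107 bases long, which is not a multiple of 3, so that junction shifts the frame. The 50 intron bases before exon 4 were 34% T in UPF3A and 52% T in UPF3B, at percentiles 35.5 and 89.6 of all events tested in the U3 table. In the frame of the canonical transcript, the SMG5 exon holds a stop codon that starts at its base 98.

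The first comparison asked whether exon inclusion in NMD factors changed after loss of FUBP1. The inclusion level of an event, from 0 to 1, is the fraction of its junction reads that support inclusion after division by the effective length of either form. No member event was called at an adjusted p under 0.1 among 27 tested by a quasi-binomial test with a limma-moderated dispersion, where 0.197% of all 16213 events were called. Neither form of limma on the log2 odds called a member event. A single member event, 3.70% of the 27, had an unadjusted p under 0.05 against 4.59% of all events, and 2 member events (7.41%) had no overlap between the groups against 5.05%. The median change was 0.00435 for member events and -0.00139 for all events.

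Both events without overlap were exon 4 of UPF3A. Measured between exons 2 and 5, its inclusion level was 0.461, 0.375 and 0.535 in the siCtrl2 libraries and 0.153, 0.0742 and 0.208 in the siFUBP1 libraries. The highest siFUBP1 library was thus below the lowest siCtrl2 library, and the mean went from 0.457 ± 0.0798 to 0.145 ± 0.0673 (SD, n = 3), a change of -0.312. This did not pass the correction over all events (limma-moderated quasi-binomial test, unadjusted p = 0.0139, adjusted p = 0.812). Without each library in turn the change stayed between -0.353 and -0.273. Inclusion reads numbered 97 over the siCtrl2 libraries and 20 over the siFUBP1 libraries, while skipping reads numbered 68 and 76, so that the precision rested on 43.5 reads per library.

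Measured between exons 3 and 5, the same exon had levels of 0.551, 0.589 and 0.668 in siCtrl2 and 0.328, 0.340 and 0.422 in siFUBP1. The groups again did not overlap, and the mean change was -0.240 at 63.2 reads per library (limma-moderated quasi-binomial test, unadjusted p = 0.0595, adjusted p = 0.812). The reads that join exon 4 to exon 5 count in both events. The junction from exon 2 to exon 4 had only 0, 3 and 3 reads in siCtrl2 and 0 in each siFUBP1 library. Nearly all inclusion reads of the event between exons 2 and 5 were thus exon 4 to exon 5 reads. The 2 events are therefore not separate measurements of exon 4, and a form that joins exon 2 to exon 4 was rare in these libraries. With the 265-base exon upstream instead, the level was 0.836, 0.944 and 1 in siCtrl2 and 1, 0.256 and 1 in siFUBP1, which overlapped.

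**Figure D1:**
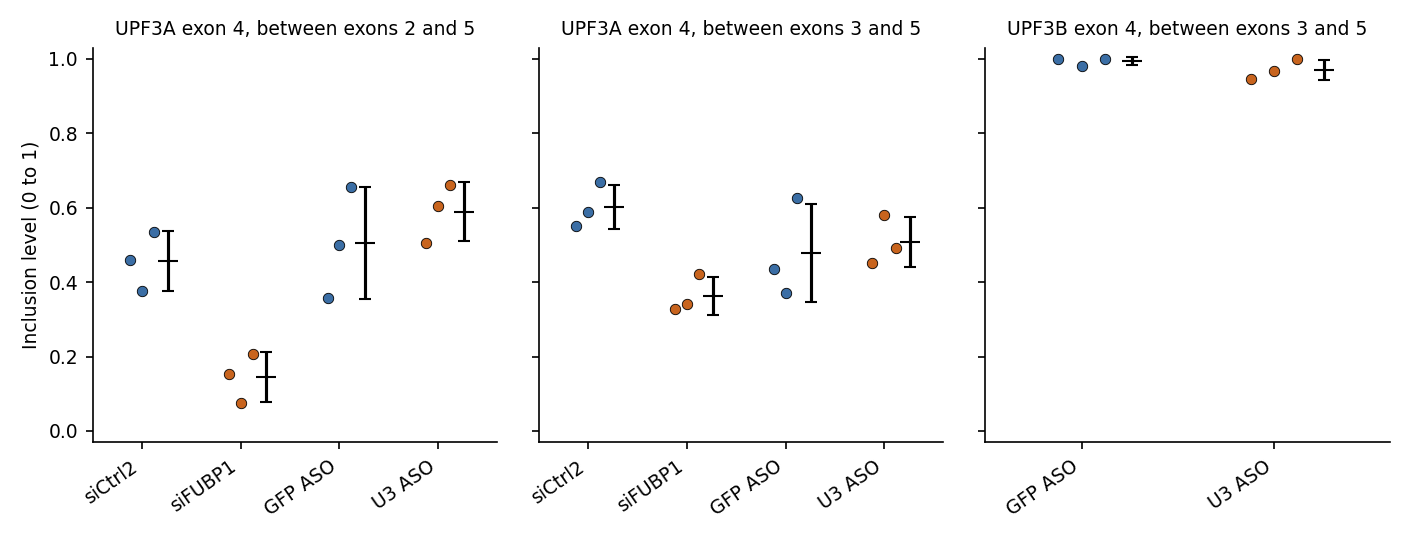
Inclusion level (0 to 1) of exon 4 of UPF3A, between exons 2 and 5 (left) and between exons 3 and 5 (middle), and of exon 4 of UPF3B (right). Points are libraries, and bars beside them the mean and SD of 3 libraries. The siFUBP1 libraries sit below the siCtrl2 libraries for UPF3A in both panels, the U3 ASO and GFP ASO libraries overlap, and UPF3B is near 1 throughout. UPF3B exon 4 has no event in the siFUBP1 table.

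The other UPF3A exons changed less or were measured with few reads. Exon 3, between exons 2 and 5, had levels of 0.655, 0.645 and 0.727 in siCtrl2 and 0.546, 0.542 and 0.654 in siFUBP1, which overlapped (change -0.0947, unadjusted p = 0.333 by the limma-moderated test). It shares its skipping reads with exon 4. Exon 5, between exons 2 and 7, had 1, 0.950 and 1 in siCtrl2 and 1, 0.545 and 0.678 in siFUBP1, at 25 reads per library. The UPF3A event with the most reads, exon 6 between exons 5 and 7, was at 1, 0.930 and 1 in siCtrl2 and at 1 in all 3 siFUBP1 libraries. The 265-base exon was mostly skipped, with a mean level of at most 0.0817 in either group.

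In the other members, the listed events with the most reads were near full inclusion or, in SMG5, near full skipping. Their 14 events, leaving out UPF3A, changed by -0.0742 to 0.0506. The 132-base exon of SMG5 was at 0, 0 and 0 in siCtrl2 and at 0, 0.00997 and 0.00307 in siFUBP1, with 224 reads per library, so that it was nearly always skipped. The SMG1 event with the most reads, exon 56, was at 1 in every library but the third siFUBP1 library (0.987). Exon 52 of SMG1 was at 0.877, 0.958 and 1 in siCtrl2 and 1, 0.724 and 0.953 in siFUBP1. UPF1 exon 23, the exon with the end of the coding sequence, was at 1, 1 and 0.896 in siCtrl2 and at 1 in siFUBP1. Exon 3 of UPF3B was at 1 in all libraries but the second siFUBP1 library (0.777), at 23.5 reads per library. Exon 3 of SMG6 was at 1, 0.848 and 1 in siCtrl2 and at 1 in siFUBP1, and exon 6 of SMG9 was at 1, 0.862 and 1 against 0.924, 0.945 and 0.965. In each of these genes the groups overlapped.

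**Figure D2:**
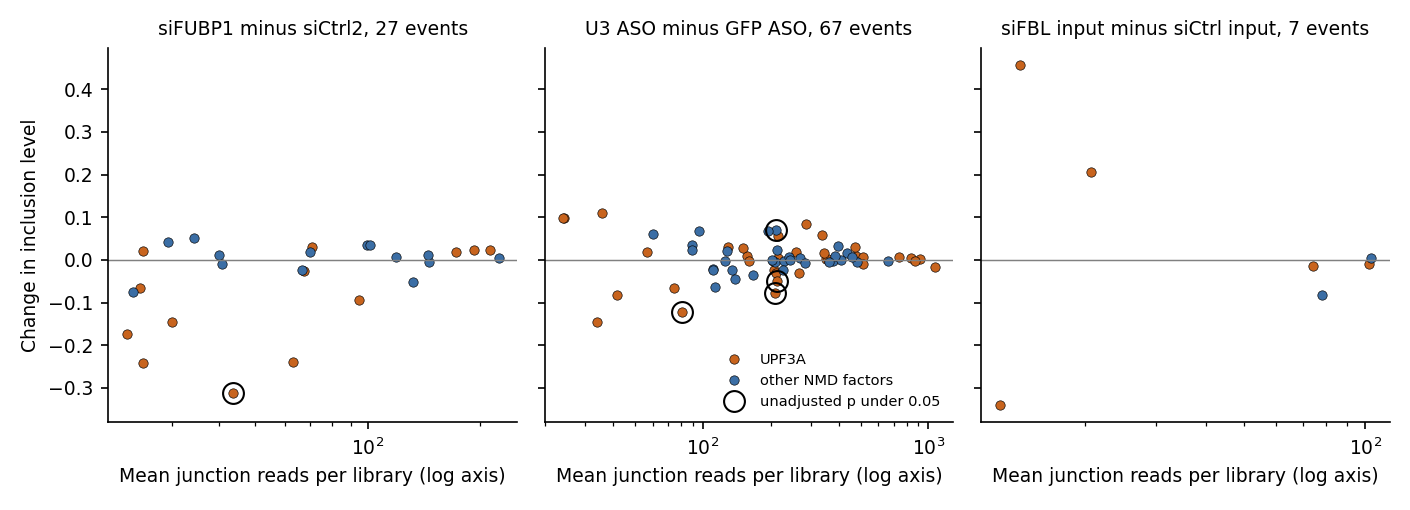
Change in inclusion level (depletion minus control) of each member event tested against its mean junction reads per library (log axis) in the 3 tables. Orange points are UPF3A, blue points the other members, and circles mark an unadjusted p under 0.05. Events of the other members lie close to 0, and the circled event after siFUBP1 is exon 4 of UPF3A at -0.312.

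The U3 comparison asked the same of U3 depletion, at a higher depth. Again no member event was called among 67 tested, where 0.226% of 30109 events were called. Limma on the log2 odds called no event at all in this comparison, so it says nothing about the members in particular. Another event had too few reads to test. An unadjusted p under 0.05 was found for 4 member events (5.97%, against 4.13% of all events), and 6 had no overlap between the groups (8.96%, against 6.03%). The changes of member events ran from -0.145 to 0.109, with a median of 0.00240 against -0.00355 for all events. Exon 4 of UPF3A, between exons 2 and 5, was at 0.357, 0.500 and 0.657 in GFP ASO and 0.504, 0.604 and 0.661 in U3 ASO. These groups overlapped (change 0.0849, unadjusted p = 0.189 by the limma-moderated test), as they did between exons 3 and 5, with 0.436, 0.371 and 0.625 against 0.450, 0.582 and 0.492. The junction from exon 2 to exon 4 had 0, 19 and 46 reads in GFP ASO and 11, 6 and 23 in U3 ASO. The change of exon 4 after siFUBP1 and that under U3 ASO come from separate libraries, and the difference between them was not tested.

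Of the 4 events with an unadjusted p under 0.05, 3 were exons 3, 5 and 6 of UPF3A and rest on the same skipping junction, from exon 2 to exon 7. This junction had 0 reads in the 3 GFP ASO libraries and 19, 7 and 1 reads in the U3 ASO libraries. The level of exon 5 was 1 in all GFP ASO libraries and 0.773, 0.884 and 0.973 in U3 ASO (change -0.123, unadjusted p = 0.0481, adjusted p = 0.845 by the limma-moderated test). Exon 3 changed by -0.0782 and exon 6 by -0.0484 (unadjusted p = 0.0403 and 0.0424 by the same test), from 1 in all GFP ASO libraries to 0.818, 0.953 and 0.995 for exon 3 and to 0.902, 0.958 and 0.995 for exon 6. The fourth was exon 3 of SMG1, the kinase, which was at 0.904, 0.969 and 0.914 in GFP ASO and at 1 in all 3 U3 ASO libraries (change 0.0708, unadjusted p = 0.0215, adjusted p = 0.845 by the limma-moderated test). Its skipping reads numbered 14, 2 and 9 in GFP ASO and 0 in U3 ASO.

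The 2 other events without overlap were the 265-base exon of UPF3A and exon 4 of SMG6. The first was at 0.0719, 0.0615 and 0.0217 in GFP ASO and 0.102, 0.119 and 0.102 in U3 ASO, between exons 3 and 5 (unadjusted p = 0.121 by the limma-moderated test). Between exons 3 and 4, this exon was at 0.0276, 0.0693 and 0 in GFP ASO and 0.0357, 0.0954 and 0.0563 in U3 ASO. There the groups overlapped (unadjusted p = 0.261 by the limma-moderated test). SMG6 exon 4, at 1 in GFP ASO, was at 0.988, 0.987 and 0.916 in U3 ASO. The UPF3A event with the most reads, exon 6 between exons 5 and 7, was at 0.997, 0.979 and 0.991 in GFP ASO and 0.957, 0.980 and 0.979 in U3 ASO, at 1068 reads per library. UPF3A exon 3 between exons 2 and 5 was at 0.635, 0.766 and 0.699 against 0.633, 0.707 and 0.790. With the 265-base exon upstream, exon 4 was at 0.771, 0.715 and 0.955 against 0.719, 0.882 and 0.748. All of these overlapped except SMG6 exon 4 and the 265-base exon between exons 3 and 5.

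Most exons of the other members were included in nearly all reads, also in U3 ASO. UPF3B exon 4 was at 1, 0.981 and 1 in GFP ASO and 0.945, 0.967 and 1 in U3 ASO, unlike its counterpart in UPF3A, and UPF3B exon 5 was at 0.867, 1 and 1 against 1, 0.975 and 0.965. A 39-base coding exon of UPF3B, exon 8 of the canonical transcript, was mostly skipped, with levels of 0.0292, 0.118 and 0.0479 in GFP ASO and 0.194, 0.0293 and 0.179 in U3 ASO. The 132-base exon of SMG5 again stayed near 0, with a highest level of 0.0179. UPF1 exon 20 was at 1, 1 and 0.978 against 1 in all U3 ASO libraries. UPF2 exon 15 was at 1 in GFP ASO and at 1, 0.970 and 0.957 in U3 ASO. SMG1 exon 44, with 664 reads per library, was at 1 in all libraries but the first U3 ASO library (0.995). SMG5 exon 11 was at 0.979, 0.932 and 0.927 against 0.985, 0.973 and 0.975, and SMG9 exon 6 at 0.813, 0.855 and 0.985 against 0.967, 0.944 and 0.944.

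After FBL depletion no member event was called, as for all 5208 events (0%), and none of the 7 tested had an unadjusted p under 0.05 (2.25% of all events) or groups that did not overlap (13.8%). Limma on the log2 odds called no event either. These events had few reads and 2 libraries per group. UPF3A exon 4 between exons 2 and 5 had 2 and 0 inclusion reads in siCtrl input and 9 and 1 in siFBL input, and skipping reads of 9 and 16 against 0 and 18. The siFBL libraries thus lay at 1 and 0.0323, while the siCtrl libraries lay at 0.118 and 0. UPF3A exon 3 between exons 2 and 5 was at 0.341 and 0.409 in siCtrl input and 1 and 0.163 in siFBL input. UPF3A exon 8, with 102.5 reads per library, was at 1 and 1 against 0.981 and 1. The 132-base exon of SMG5 had 1 inclusion read in 1 siFBL library and none in the other 3 libraries.

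Junction RPM, summed over the listed events of a gene, gave a measure of its RNA level. For this measure, the share of all genes whose groups did not overlap was not counted. RPM is relative to all junction reads of a library. Fewer cells with a transcript and less of that transcript per cell cannot be told apart in such bulk libraries. These sums count a read once for each event that holds it, and reads of SMG1 and UPF3A can also come from copies, since GENCODE names 7 SMG1 and 3 UPF3A pseudogenes, so both are uncertain. After siFUBP1, UPF3A was 1 of 7 members called lower, and the other 6 were not called, where 6.16% of 6432 genes were called lower. It had 345.9, 308.2 and 441.0 RPM in siCtrl2 and 276.0, 270.3 and 258.8 in siFUBP1. The groups did not overlap, and the log2 change was -0.43 ± 0.13 (SE, n = 3, adjusted p = 0.0479 by limma). The UPF3A sum includes the 3 events of exon 4, so this fall and the exon 4 result share reads. The call was lost without the third siCtrl2 library (log2 change -0.28, adjusted p = 0.234 by limma), without the third siFUBP1 library (-0.40, adjusted p = 0.122), from the event with the most reads alone (-0.29, adjusted p = 0.430) and without an intensity trend (adjusted p = 0.286).

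The other members were not called after siFUBP1. SMG6 had 16.6, 23.9 and 25.3 RPM in siCtrl2 and 13.8, 12.9 and 21.9 in siFUBP1, with a log2 change of -0.45 ± 0.36 (SE, n = 3). UPF1 changed by -0.27 ± 0.31, SMG5 by -0.10 ± 0.13, SMG1 by -0.07 ± 0.17, UPF3B by 0.14 ± 0.62 and SMG9 by 0.17 ± 0.44, on the same scale. All of these groups overlapped, and the median of all genes was -0.05.

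Under U3 ASO more members had higher junction reads, and so had many other genes. The median log2 change of all 8548 genes was 0.28, and 36.5% were called higher and 10.2% lower. Of 8 members, 5 were called higher (UPF3B, SMG1, UPF3A, UPF1 and SMG5) and none lower. With scaling by the median of ratios over genes, 3 members stayed higher (UPF3B, SMG1 and UPF3A), where 18.2% of all genes were called higher. This scaling also moved the split of all calls, from 3124 higher of 3999 to 1552 higher of 3180.

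UPF3B, the paralog with the stronger NMD activity, had 24.6, 22.5 and 23.6 RPM in GFP ASO and 50.6, 41.8 and 45.1 in U3 ASO. This was a log2 change of 0.96 ± 0.16 (SE, n = 3, adjusted p = 0.000148 by limma), or 0.71 with the median of ratios (adjusted p = 0.00250). SMG1 had 270.9, 215.3 and 202.9 in GFP ASO and 382.1, 399.3 and 370.4 in U3 ASO, a log2 change of 0.75 ± 0.09 (adjusted p = 5.23e-06 by limma), or 0.50 with the median of ratios (adjusted p = 0.000390). UPF3A had 760.8, 741.8 and 661.5 against 1139, 1108 and 1058, a log2 change of 0.61 ± 0.06 (adjusted p = 3.21e-07 by limma), or 0.36 with the median of ratios (adjusted p = 0.000116). In these 3 genes all U3 ASO libraries lay above all GFP ASO libraries, and the changes were at percentiles 87.3, 80.7 and 74.1 of all genes. How common such a separation was among all genes was not counted.

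UPF1 had 46.0, 46.0 and 57.1 RPM in GFP ASO and 65.7, 65.1 and 65.7 in U3 ASO, a log2 change of 0.41 ± 0.13 (adjusted p = 0.0210 by limma). SMG5 had 132.4, 147.7 and 137.8 against 162.7, 175.7 and 171.4, a log2 change of 0.29 ± 0.09 (adjusted p = 0.0144 by limma). The groups did not overlap in either gene, but the changes were close to that of the median gene, at 0.16 and 0.04 with the median of ratios, and neither was then called (adjusted p = 0.403 and 0.773 by limma). Not called in either scaling were UPF2 (0.36 ± 0.18), SMG9 (0.40 ± 0.20) and SMG6 (0.20 ± 0.16, which was -0.04 with the median of ratios). UPF2 had 27.3, 25.8 and 25.4 RPM in GFP ASO and 33.3, 41.6 and 27.3 in U3 ASO.

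**Figure D3:**
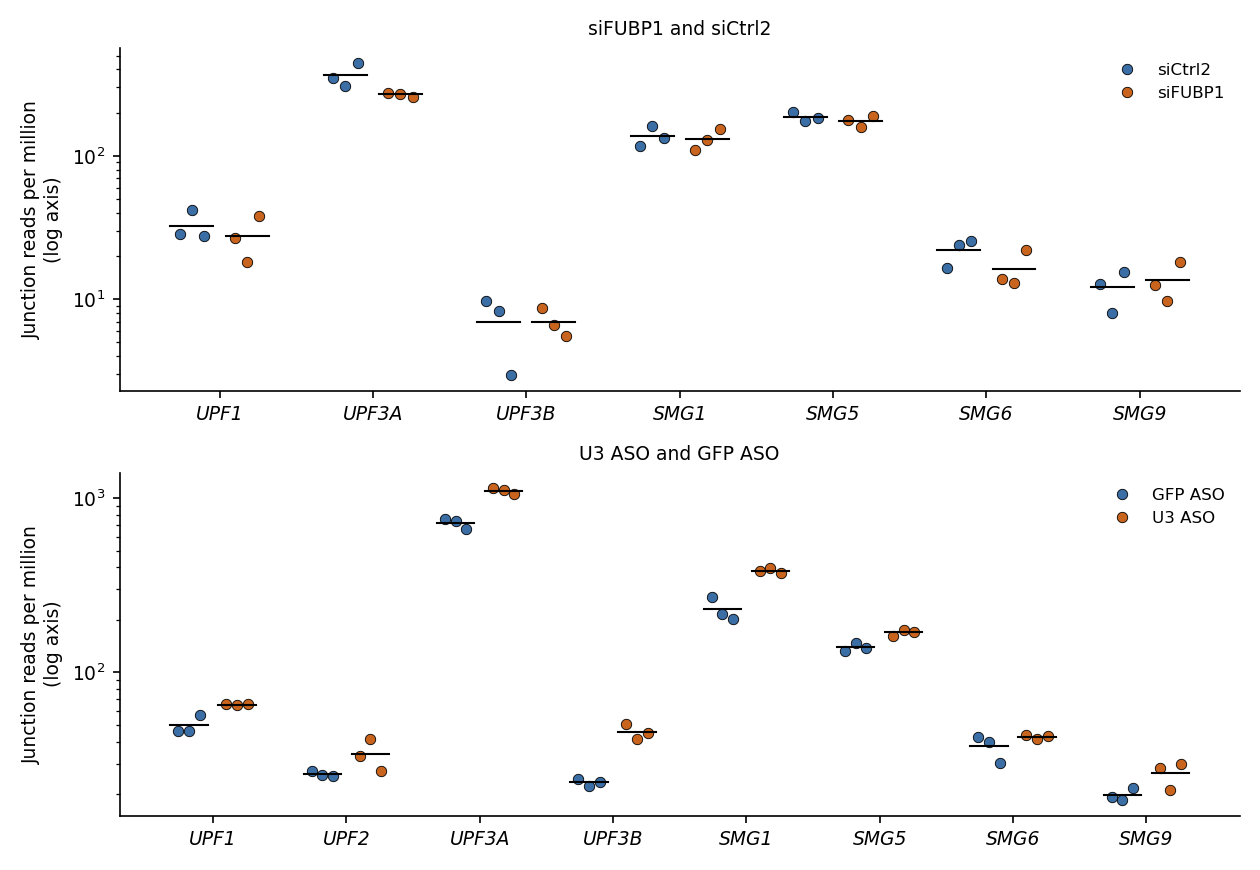
Junction RPM (log axis) summed over the listed events of each member after siFUBP1 (top) and under U3 ASO (bottom). Points are libraries, with the control in blue and the depletion in orange, and bars are means of 3. Under U3 ASO the libraries of UPF3B, SMG1, UPF3A, UPF1 and SMG5 lie above all GFP ASO libraries, and after siFUBP1 those of UPF3A lie below the siCtrl2 libraries.

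In the siFBL input, neither member with events was called (limma), where 0.777% of 3217 genes were called higher and 2.86% lower. UPF3A had 244.3 and 308.5 RPM in siCtrl and 195.5 and 195.5 in siFBL, a log2 change of -0.49 ± 0.28 (SE, n = 2, adjusted p = 0.482 by limma, unadjusted p = 0.0928). Its groups did not overlap, which says little with 2 libraries per group, and the share over all genes was not counted. SMG5 had 158.5 and 276.7 against 134.6 and 168.2, with overlap, a log2 change of -0.48 ± 0.33 (adjusted p = 0.588 by limma). The median of all genes was -0.19.

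The RIP comparison asked how much of each transcript was recovered with FUBP1 relative to input, and whether this changed after FBL depletion. Enrichment is the authors' deposited log2 fold of RIP over input, given with its deposited standard error (2 RIP and 2 input libraries per condition). In siCtrl, 4 members were enriched and 4 depleted at an adjusted p under 0.1 (Wald test across genes), while 39.8% of 14900 genes were called enriched and 38.2% depleted. The kinase SMG1 was at 1.17 ± 0.04 (SE), the adaptor UPF2 at 0.97 ± 0.10, the SMG1 inhibitor SMG8 at 0.65 ± 0.16 and UPF3A at 0.37 ± 0.11. UPF3B was not called, at -0.03 ± 0.14. The depleted transcripts were those of the endonuclease SMG6 (-1.04 ± 0.13), of SMG5 (-2.19 ± 0.09), of UPF1 (-2.22 ± 0.09) and of the SMG1 subunit SMG9 (-2.39 ± 0.25).

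The members thus spanned percentile 67.4 (SMG1) to 16.3 (SMG9) of all genes, whose median was 0.05. Neighbours in this order lay within 2 SE of their difference from SMG1 to UPF2, UPF2 to SMG8 and SMG8 to UPF3A, and from SMG5 to UPF1 and UPF1 to SMG9. UPF3A lay above its paralog UPF3B by 0.40 ± 0.17, UPF3B above SMG6 by 1.01 ± 0.19 and SMG6 above SMG5 by 1.14 ± 0.16. SMG8 and SMG9, which act together on SMG1, were thus on opposite sides of 0.

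The base composition of the transcripts ran with the enrichment. Over 14230 genes with a canonical GENCODE transcript (95.5% of those tested), Spearman's rho between GC content and enrichment in siCtrl was -0.756, and over the 9 members it was -0.767. These are descriptions across genes of the same libraries, and genes are not independent replicates. The canonical transcripts of UPF2, UPF3B and SMG1 were 41.2%, 41.3% and 43.1% GC, and those of UPF1, SMG5, SMG6 and SMG9 60.4%, 57.6%, 55.3% and 55.2%. Among genes of 40 to 45% GC the median enrichment was 1.26 with quartiles of 0.42 and 2.12, which placed UPF3B below the lower quartile. Among genes of 55 to 60% GC it was -1.90 with quartiles of -2.67 and -0.87, which held SMG5, SMG6 and SMG9. UPF1 lay above the median of -2.51 of genes over 60% GC. Whether GC content has a part in the members' values was not tested.

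After FBL depletion the enrichment of 5 members was higher and that of none lower at an adjusted p under 0.1, where 5.36% of 14242 genes were called higher and 6.64% lower. UPF1 went from -2.22 to -1.69 ± 0.10 (SE), a difference of 0.53 ± 0.13 (Wald test across genes, adjusted p = 0.00155). SMG5, which acts with phosphorylated UPF1, rose by a similar amount, from -2.19 to -1.72 ± 0.08 (difference 0.46 ± 0.13, adjusted p = 0.00530). UPF2 went from 0.97 to 1.46 ± 0.10 (difference 0.49 ± 0.14, adjusted p = 0.00785). SMG6 went from -1.04 to -0.40 ± 0.18 (difference 0.64 ± 0.23, adjusted p = 0.0545), and UPF3B from -0.03 to 0.52 ± 0.16 (difference 0.55 ± 0.21, adjusted p = 0.0801). These differences amount to 1.38 to 1.56 times the siCtrl ratio of RIP to input, at percentiles 80.6 to 87.0 of all genes, whose median difference was -0.00249.

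No change was called for SMG1 (0.04 ± 0.06), UPF3A (0.16 ± 0.13), SMG9 (0.31 ± 0.33) and SMG8 (-0.24 ± 0.21). In siFBL all 9 members differed from 0, with SMG1, UPF2, UPF3A, UPF3B and SMG8 enriched and UPF1, SMG5, SMG6 and SMG9 depleted, where 38.6% of 14757 genes were called enriched and 36.9% depleted. In siFBL, UPF2 lay above SMG1 by 0.25 ± 0.11, and UPF3A and UPF3B were close to each other (0.53 ± 0.08 and 0.52 ± 0.16).

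**Figure D4:**
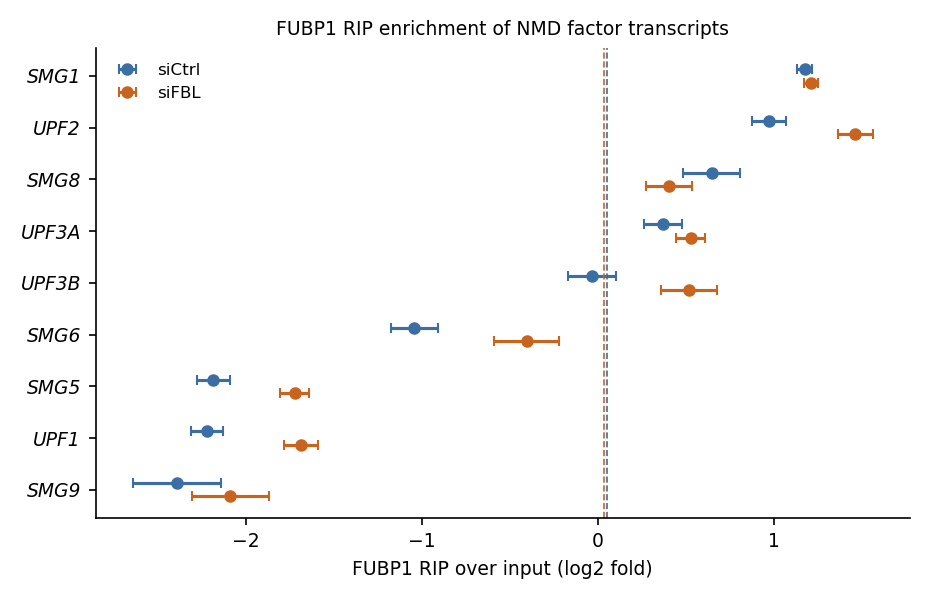
FUBP1 RIP enrichment over input (log2 fold) of the 9 members in siCtrl (blue) and siFBL (orange), ordered by the value in siCtrl. Points are deposited values, bars their standard errors, and dashed lines the medians of all genes. UPF1, SMG5, SMG6, UPF2 and UPF3B lie farther right in siFBL, and SMG1 hardly moves.

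The difference between the conditions also ran with GC content over all genes (Spearman's rho 0.374 across genes). Its median was 0.338 for genes over 60% GC and 0.242 for genes of 55 to 60%, of which 13.5% and 10.0% were called higher, and -0.149 for genes of 40 to 45%, of which 1.47% were called higher. UPF1, SMG5 and SMG6 lay in the GC-rich classes that were higher in siFBL. All members but SMG8 lay above the median of their class. UPF2 and UPF3B, with differences of 0.49 and 0.55, lay in a class whose median moved the other way.

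**Figure D5:**
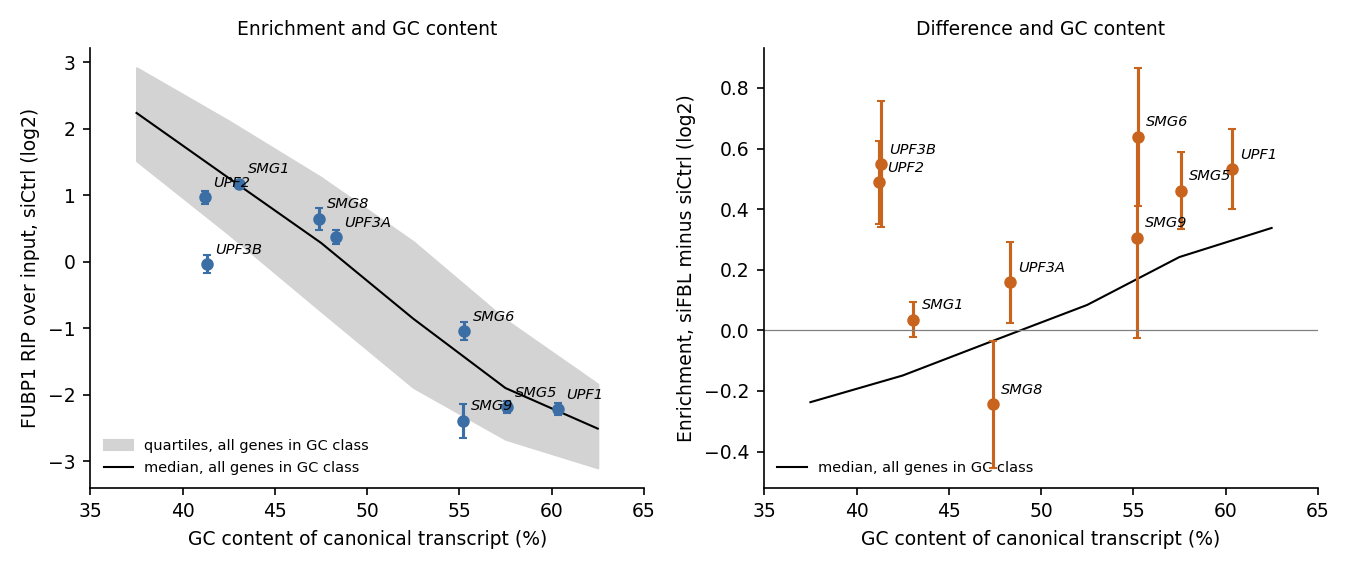
Enrichment in siCtrl (left) and the difference between siFBL and siCtrl (right), both log2, against the GC content of the canonical transcript. Points are members with standard errors, the line is the median of all genes in 6 GC classes and the grey band their quartiles. On the left enrichment falls with GC content, with UPF3B below the band. On the right all members but SMG8 lie above the line.

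Of 34 other genes of the NMD pathway, which cover the exon junction complex, release factors, decapping and deadenylation, 26 had events for siFUBP1, 28 for U3 and 15 for siFBL. None of their 89, 127 and 27 events tested was called by the quasi-binomial test with limma, and 4, 3 and 1 had an unadjusted p under 0.05, against 4.59%, 4.13% and 2.25% of all events. In junction reads, 3 of 26 genes were called lower after siFUBP1, where 6.16% of all genes were, and none higher. They were POLR2D, an RNA polymerase II subunit (log2 change -0.88 ± 0.16), CNOT8, a deadenylase (-0.51 ± 0.16), and XRN2, a nuclear exonuclease (-0.41 ± 0.11). Under U3 ASO, 13 of 28 were called higher and 1 lower (36.5% and 10.2% of all genes), and with the median of ratios 2 were higher and 7 lower (18.2% and 19% of all genes). ETF1, the release factor that recognises stop codons, and CASC3, of the exon junction complex, were higher in both scalings (log2 changes of 0.57 ± 0.06 and 0.52 ± 0.12). NBAS was lower in both (-0.37 ± 0.16). In the siFBL input none of 15 was called (limma), and none had an unadjusted p under 0.05.

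In the RIP data, 20 of 32 of these genes were enriched and 9 depleted in siCtrl, where 39.8% and 38.2% of all genes were. In siFBL 18 were enriched and 10 depleted, against 38.6% and 36.9% of all genes. Enrichment was higher after FBL depletion for 5 and lower for 2, against 5.36% and 6.64% of all genes. The higher ones were MOV10, a helicase (0.84 ± 0.27), RUVBL2, an ATPase (0.77 ± 0.21), EXOSC10, an exosome nuclease (0.63 ± 0.24), EIF4A3, the anchor of the exon junction complex (0.63 ± 0.18), and EDC4, a decapping cofactor (0.57 ± 0.21). The lower ones were the deadenylase CNOT7 (-0.60 ± 0.17) and the double-stranded RNA-binding protein STAU1 (-0.23 ± 0.07). The median difference over the list was -0.0326 against -0.00249 for all genes.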

How the data were processed

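Poly(A) RNA-seq libraries and the input of RIP-seq were compared through skipped exon tables, and FUBP1 RIP-seq through a gene table. The authors trimmed reads with Cutadapt, aligned them to hg38 with HISAT2 and made the deposited counts of inclusion and skipping junction reads per event and library with rMATS. With DESeq2 the authors made, per condition, the deposited score (mean normalized count) and the deposited log2 fold of RIP over input with its standard error. Which libraries entered the mean count, and tool versions, are not given in the sources used here. The authors' p-values, false discovery rates and level differences were not used, nor were 6 columns of inclusion levels.

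Events with a mean of at least 10 reads per library were fitted with a quasi-binomial model of inclusion and skipping reads, its dispersion moderated across events with limma 3.58.1 in R 4.3.3. Junction reads were summed over the events of a gene, scaled to RPM, and tested on log2 values (pseudocount 0.5 reads) with limma using an intensity trend. RIP enrichment and its difference between conditions were tested by a two-sided Wald test from the deposited standard errors, treated as independent, leaving out genes whose mean count was under 10 or whose fold was listed at exactly 0. P-values were adjusted over all features by Benjamini-Hochberg, and calls were made under 0.1. Exons were placed in GENCODE release 44, and sequences read from hg38. Each step was tested on simulated data. Named events were those called or with an unadjusted p under 0.05, the event with the most reads of each gene, and those with a mean level of 0.1 to 0.9 at 20 or more reads per library. Other events given with values, such as those of UPF3B exons 4 and 8, the exons absent from GENCODE, SMG1 exon 52 and UPF3A exon 4 in the siFBL input, were chosen after their values were seen. The members and lists were chosen with earlier results of these data known. Alternatives changed the scaling, read minimum, pseudocount, dispersion model, event choice and the libraries used. Values of 1 called gene of the pathway list and the sequence of the 265-base exon are not reported here.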

Additional observations from a re-analysis of the deposited data

Results flagged for a closer look

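The difference in FUBP1 RIP enrichment between siFBL and siCtrl passed the test of the difference itself for 5 members (Wald test across genes). It was 0.533 for UPF1, 0.488 for UPF2, 0.549 for UPF3B, 0.462 for SMG5 and 0.639 for SMG6, on the log2 scale and with 2 RIP and 2 input libraries per condition. Among all genes tested, 5.36% were called higher.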

How the results depend on the processing

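No paired analysis was possible because the lists of junction reads carry no replicate numbers and the RIP values are pooled per condition. The number of members with changed junction reads after siFUBP1 was 1, and 0 from the event with the most reads or without an intensity trend, and it ranged from 0 to 1 when single libraries were left out. Under U3 ASO it was 5, and 3 with the median of ratios, with a range of 5 to 6 over left-out libraries. The log2 change of SMG6 under U3 ASO turned to -0.045 with the median of ratios and to -0.12 from the event with the most reads. After siFUBP1, leaving out single libraries gave log2 changes of -0.37 to 0.45 for UPF3B, -0.19 to 0.048 for SMG1 and -0.10 to 0.38 for SMG9. Over all events, 32 were called after siFUBP1, against 8 and 6 by limma on the log2 odds without and with a variance trend, and 20 to 30 without single libraries. Under U3 ASO 68 were called, against 0 by both forms of limma on the log2 odds, and 33 to 60 without single libraries. Over all genes, 750 were called after siFUBP1 and 119 without an intensity trend. For the siFBL input these counts were 117 and 0, and 7 and 6 without the first and the second siFBL library. The causes were not tested. No RIP call of the 9 members changed under any alternative run, while the number of genes called for the difference ranged from 1597 to 1708. In the siFBL input 3 of 10 member events had under 10 reads per library and were not tested.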
